A study of Homo sapiens with 2 samples.

Results

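The Hedgehog genes described here are 9 members of 1 signalling pathway: the ligands SHH, IHH and DHH, the receptors PTCH1 and SMO, the decoy receptor HHIP, and the transcription factors GLI1, GLI2 and GLI3. They were picked out of the table by symbol, and all 9 were found, each with 1 identifier, among the 57158 genes of the table. The table comes from liver progenitors derived from CyT49, an established human embryonic stem cell line. Definitive endoderm (day 2) was cultured in suspension for 6 days in RPMI medium with 50 ng/ml BMP4, 10 ng/ml FGF2 and 0.2% FBS, and strand-specific poly(A) libraries were made from the cells at day 8. There are 2 libraries of this 1 group and no other condition or time point, so levels are described and nothing is compared between conditions. Values are RPKM, in which read numbers are divided by gene length and by library size. Every value under 0.5 RPKM is listed as 0.1, and 0.1 is read below as "under 0.5 RPKM".

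Hedgehog ligands are secreted proteins that carry a cholesterol and a palmitate group and act on neighbouring cells. Without ligand, PTCH1 holds SMO inactive and GLI factors are kept back or cut into repressors at the primary cilium. Ligand bound to PTCH1 frees SMO, GLI2 and GLI3 then act less as repressors and more as activators, and GLI1, PTCH1 and HHIP are themselves induced, so their transcripts are widely used as readouts of the pathway. In embryonic gut, the ligands are made by the endodermal epithelium and the response is strongest in the mesenchyme around it. In injured adult liver, epithelial cells make the ligands and stellate cells respond to them.

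At day 8 the progenitors held 1 ligand transcript and the SMO transcript at high levels, PTCH1 near the middle of all protein-coding genes, and the other 6 members lower or under the limit. IHH averaged 36.5 RPKM and SMO 35.1 RPKM, while PTCH1 averaged 3.15 and GLI3 1.70 RPKM. GLI1 (0.592) and SHH (0.537) lay just above the lowest value kept, and DHH, GLI2 and HHIP were under 0.5 RPKM in both libraries. Thus 4 of the 9 members reached 1 RPKM in both libraries, beside 59.8% of 19344 protein-coding genes, 6 of 9 reached 0.5 RPKM in both, beside 65.1%, and 3 of 9 were listed at 0.1 in both, beside 33.8%. The median of the members was 0.592 RPKM and that of all protein-coding genes 2.42 RPKM.

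**Figure D1:**
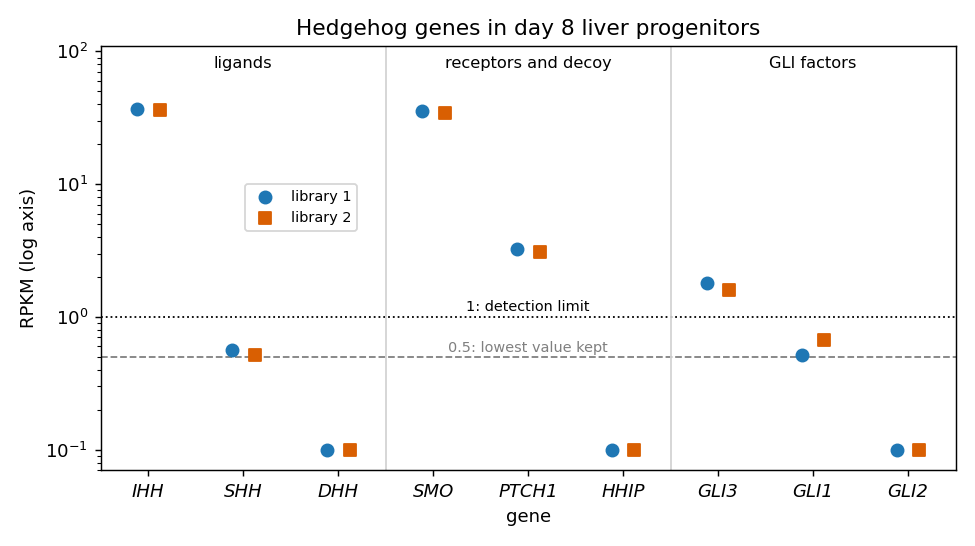
Level of each Hedgehog gene in RPKM on a log axis, grouped by role, with a circle for library 1 and a square for library 2. IHH and SMO sit between 34.4 and 36.9 RPKM, PTCH1 and GLI3 lie above the dotted line at 1 RPKM, SHH and GLI1 lie between the lines at 0.5 and 1, and DHH, HHIP and GLI2 are drawn at the listed value of 0.1.

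Bases before the start sites of 4 of these genes are printed to set side by side the 2 members with the highest levels, the target gene PTCH1 and the target gene HHIP, which was under the limit. Each is the 250 bases before a RefSeq transcript start on GRCh38.p14, written 5′ to 3′ on the gene's strand. RefSeq windows were matched for 7 of the 9 members, 12 windows in all, and GLI1 and GLI3 have none here. Capitals mark CG dinucleotides in the first 3 sequences and, in the last, the GLI motif.
IHH, chr2:219060922-219061171, minus strand: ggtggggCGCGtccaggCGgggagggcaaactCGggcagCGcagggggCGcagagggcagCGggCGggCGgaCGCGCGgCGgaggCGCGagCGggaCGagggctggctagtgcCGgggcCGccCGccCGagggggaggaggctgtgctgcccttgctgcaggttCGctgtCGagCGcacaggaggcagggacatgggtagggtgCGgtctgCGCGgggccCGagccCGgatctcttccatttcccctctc
SMO, chr7:129188383-129188632, plus strand: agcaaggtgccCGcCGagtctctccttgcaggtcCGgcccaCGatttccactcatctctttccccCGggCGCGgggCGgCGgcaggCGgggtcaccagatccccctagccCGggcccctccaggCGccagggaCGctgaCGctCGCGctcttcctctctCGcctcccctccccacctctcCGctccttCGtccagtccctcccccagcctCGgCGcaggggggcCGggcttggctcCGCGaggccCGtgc
HHIP, chr4:144645906-144646155, plus strand: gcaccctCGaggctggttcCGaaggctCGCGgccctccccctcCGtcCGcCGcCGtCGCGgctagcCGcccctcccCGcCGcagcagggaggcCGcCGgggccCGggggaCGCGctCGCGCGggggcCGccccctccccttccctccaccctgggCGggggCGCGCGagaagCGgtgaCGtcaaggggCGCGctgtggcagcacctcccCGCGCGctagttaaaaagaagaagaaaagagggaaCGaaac
PTCH1, chr9:95509267-95509516, minus strand: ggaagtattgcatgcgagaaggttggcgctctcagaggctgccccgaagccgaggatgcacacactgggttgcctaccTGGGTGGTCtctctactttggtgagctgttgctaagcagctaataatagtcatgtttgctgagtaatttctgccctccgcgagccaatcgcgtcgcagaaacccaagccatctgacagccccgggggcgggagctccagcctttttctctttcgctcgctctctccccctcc

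The motif searched was GACCACCCA, the consensus bound by GLI factors, on both strands. It was found in 1 of the 12 member windows, as TGGGTGGTC in 1 of the 5 PTCH1 windows, with its first base 172 bases before that start. Of all 35116 windows of the same length, 70 (0.199%) held it. A match describes the letters and does not show that a factor was bound, and its absence speaks only of these windows. The CG dinucleotides were at least as dense before HHIP as before IHH and SMO. The IHH window held 29 and the SMO window 25, with a ratio of observed to expected CG of 0.861 and 0.775, and the HHIP window, beside a transcript under the limit, held 34 with a ratio of 0.976. The SHH window held 7 (ratio 0.579) and the DHH window 11 (ratio 0.545), near the median ratio of 0.558 over all windows. For GLI2, also under the limit, 1 window held 26 (ratio 0.880) and the other 6 (ratio 0.407). The 5 PTCH1 windows held 12 to 25, with ratios of 0.638 to 0.845.

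Among the ligands, only IHH reached 1 RPKM. IHH (Indian hedgehog), known for its part in cartilage growth and in gut and visceral endoderm, is ENSG00000163501.5, on chromosome 2 from 219919146 to 219925643 (GRCh37, minus strand). It stood at 36.9 RPKM in library 1 and 36.0 RPKM in library 2, and ranked 904 of 19344 protein-coding genes, within the top 4.67%. On its 2473 bp transcript these levels correspond to about 2299 and 2251 reads. SHH (Sonic hedgehog), the ligand of notochord, floor plate and much of the foregut epithelium, is ENSG00000164690.3, on chromosome 7 from 155592674 to 155605157 (minus strand). It stood at 0.562 RPKM in library 1 and 0.513 RPKM in library 2, about 66 and 60 reads on its longest coding transcript of 4650 bp. The mean of IHH was 67.9 times that of SHH, and the library values of the pair were far apart. DHH (Desert hedgehog), the ligand of testis and peripheral nerve sheath, is ENSG00000139549.2, on chromosome 12 from 49480439 to 49488584 (minus strand), and was under 0.5 RPKM in both libraries. That limit stands for about 59 reads on its transcript, so a low level of DHH was not detectable.

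Of the receptors, SMO was higher than PTCH1. SMO (Smoothened), the membrane protein that passes the signal on, is ENSG00000128602.5, on chromosome 7 from 128828474 to 128853386 (plus strand). It stood at 35.9 RPKM in library 1 and 34.4 RPKM in library 2, rank 931 of the protein-coding genes, with about 3592 and 3454 reads. PTCH1 (Patched 1), at once the ligand's receptor, the inhibitor of SMO and a target gene, is ENSG00000185920.11, on chromosome 9 from 98205262 to 98279339 (minus strand). It stood at 3.24 RPKM in library 1 and 3.07 RPKM in library 2, rank 8790, above 54.6% of protein-coding genes. The mean of SMO was 11.1 times that of PTCH1, and that of IHH 11.6 times. PTCH1 has several start sites, its longest coding transcript measures 8662 bp and all its annotated exons together 17281 bp, and the length by which the authors divided is not given in the sources used here. HHIP, a membrane protein that binds the ligands and keeps them from PTCH1, is ENSG00000164161.5, on chromosome 4 from 145567308 to 145666423 (plus strand), and was under 0.5 RPKM in both libraries. On its longest coding transcript of 9937 bp that limit stands for about 126 reads in library 2.

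Among the GLI factors, GLI3 alone reached 1 RPKM. GLI3, the family member best known as a repressor when the pathway is off, is ENSG00000106571.8, on chromosome 7 from 42000547 to 42303699 (minus strand). It stood at 1.80 RPKM in library 1 and 1.60 RPKM in library 2, about 381 and 340 reads, and above 45.1% of protein-coding genes. GLI1, an activator and target gene, is ENSG00000111087.5, on chromosome 12 from 57853568 to 57866051 (plus strand). It stood at 0.515 RPKM in library 1 and 0.668 RPKM in library 2, about 51 and 67 reads. GLI2, the main activator in many tissues, is ENSG00000074047.16, on chromosome 2 from 121493199 to 121750229 (plus strand), and was under 0.5 RPKM in both libraries, a limit of about 90 reads. The mean of GLI3 was 2.87 times that of GLI1. The labels give transcripts only, so the balance of full-length and cut GLI3 protein was not measured.

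**Figure D2:**
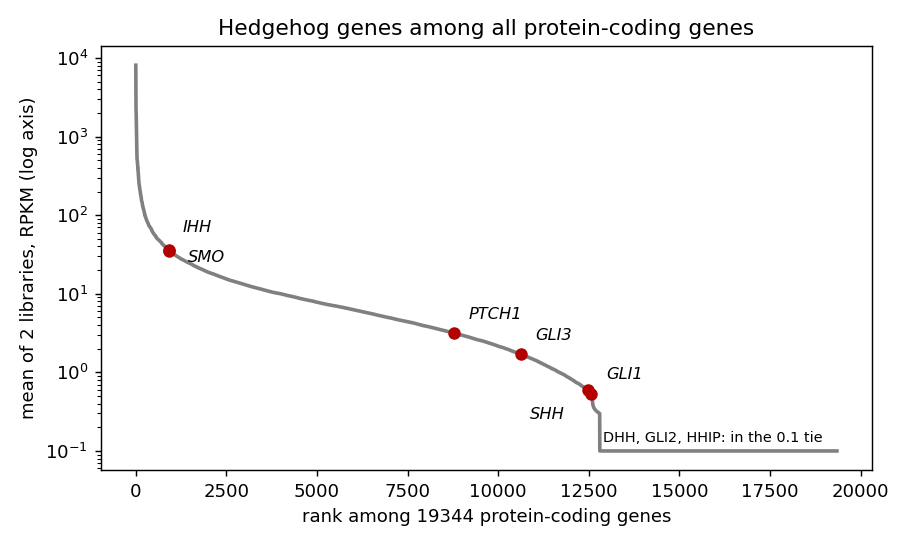
Mean RPKM of the 2 libraries on a log axis against rank for 19344 protein-coding genes (grey line), with the 6 Hedgehog genes above the listed 0.1 as red points. IHH and SMO overlap near the steep upper end at ranks 904 and 931, PTCH1 and GLI3 lie along the middle, and GLI1 and SHH lie just before the drop to 0.1.

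The order of the 6 members above the limit was set against the spread between the libraries, which does not cover the unknown gene lengths behind the values. Spread was judged from all protein-coding genes of similar level: between 20 and 50 RPKM, 95% of 1271 genes differed between the libraries by less than 1.07 times, and between 0.5 and 1 RPKM, 95% of 904 genes by less than 1.36 times. IHH and SMO differed by 1.04 times, within that spread, although their library values did not overlap. GLI1 and SHH differed by 1.10 times, also within it, and changed places between the libraries. SMO and PTCH1, PTCH1 and GLI3 (1.86 times), and GLI3 and GLI1 differed by more than the spread at their levels. With PTCH1 and GLI3 the difference is smaller than the ratio of the 2 lengths given above for PTCH1 (1.995). For GLI3 the same 2 lengths are 8405 and 13799 bp, a ratio of 1.64. Between these lengths, the order of PTCH1 and GLI3 could change only if the kind of length differed between the 2 genes. The value in library 2 differed from that in library 1 by -2.41% for IHH, -4.16% for SMO, -5.09% for PTCH1, -10.9% for GLI3, -8.69% for SHH and 29.9% for GLI1. All 6 lay within the band that held 95% of genes of their level. The libraries lay close to counting error and count as 1 sample: over 995 single-exon genes with a mean of 50 reads or more they differed by 1.10 times the counting variance. The labels do not say whether they come from separate cultures, so the spread may be technical.

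**Figure D3:**
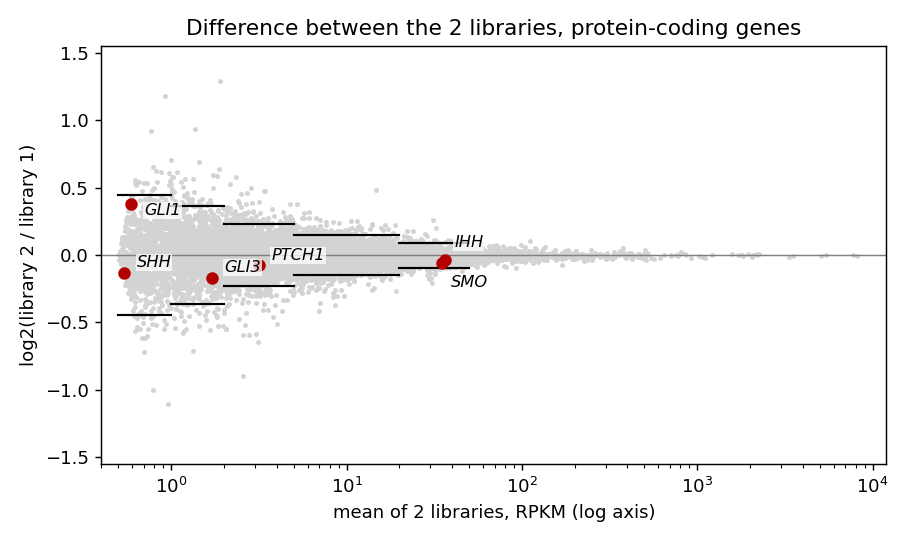
Log2 ratio of library 2 to library 1 against mean RPKM (log axis) for protein-coding genes at 0.5 RPKM or more in both libraries (grey), with Hedgehog genes in red. Black bars show, per range of level, the ratio that 95% of genes stay within, and all 6 red points lie inside them, with GLI1 the farthest from 0.

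Of 7 genes that make a ligand ready and release it from the cell, 4 reached 1 RPKM (57.1%, near the 59.8% of protein-coding genes) and 3 were at 0.1 in both libraries, with a median of 1.50 RPKM. HHAT, the enzyme that adds palmitate to the ligands, stood at 2.36 RPKM in library 1 and 2.66 in library 2. DISP1, which releases the cholesterol-bearing ligand from the membrane, stood at 1.93 and 1.76 RPKM. Of the secreted SCUBE proteins, which take up released ligand, SCUBE3 stood at 4.19 and 3.97 RPKM and SCUBE1 at 1.49 and 1.52, while SCUBE2 was under the limit, as were DISP2 and HHATL.

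Proteins that bind the ligand beside PTCH1 differed widely in level. Of 9 co-receptors and other ligand binders, 5 reached 1 RPKM (55.6%, also near the share of all protein-coding genes), and the median was 2.02 RPKM. GPC3, a cell-surface glypican of fetal liver that can bind Hedgehog ligands away from PTCH1, stood at 459.9 RPKM in library 1 and 461.8 in library 2, the highest of the list. GPC6 stood at 9.31 and 9.55 RPKM, the endocytic receptor LRP2 at 9.03 and 8.78 RPKM, and GPC4 at 2.05 and 1.99 RPKM. Of the co-receptors that help PTCH1 to bind ligand, CDON stood at 2.89 and 2.84 RPKM, GAS1 at 0.745 and 0.729 RPKM, and BOC was under the limit. GPC5 was under the limit too.

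Genes that act on SMO or just after it were nearly all detected. Of 11 genes of the SMO relay, 10 reached 1 RPKM (90.9%, beside 59.8%), with a median of 4.23 RPKM. MGRN1 (13.3 and 13.4 RPKM) and MOSMO (1.56 and 1.47 RPKM), which lower the amount of SMO at the cell surface, differed widely in level. EVC, part of the ciliary complex through which SMO signals, stood at 9.09 and 8.98 RPKM and its partner EVC2 at 1.57 and 1.49. EFCAB7, which anchors that complex, missed the limit in library 1 (0.839 RPKM) and passed it in library 2 (1.18 RPKM).

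All 21 genes that restrain or process GLI factors reached 1 RPKM (beside 59.8% of protein-coding genes), with a median of 7.67 RPKM. Of the 21, 17 reached 5 RPKM in both libraries, beside 35.4% of protein-coding genes. SUFU, which holds GLI factors in the cytoplasm, stood at 6.92 and 6.49 RPKM, and KIF7, the ciliary kinesin that scaffolds them, at 7.13 and 7.23 RPKM. Among the kinases that mark GLI3 for cutting, CSNK1E stood at 29.1 and 28.5 RPKM, CSNK1A1 at 19.5 and 19.4, GSK3B at 9.71 and 9.18 and the protein kinase A subunit PRKACA at 8.56 and 8.47. GPR161, the receptor that keeps protein kinase A active at the cilium, stood at 4.93 and 4.75 RPKM, and the ubiquitin ligase subunit SPOP at 4.38 and 4.78. Many of these genes serve other pathways as well, so their levels are not specific to Hedgehog signalling.

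The primary cilium, on which the pathway depends in vertebrates, was represented by all 35 listed genes at 1 RPKM or more. That limit was reached by 59.8% of protein-coding genes, and the levels of the 35 were modest. Their median was 2.88 RPKM, and 9 of the 35 reached 5 RPKM in both libraries (25.7%, beside 35.4% of protein-coding genes). The highest was ARL3, a small GTPase, at 42.9 and 41.2 RPKM, followed by the kinesin subunit KIF3B at 10.3 and 9.67 RPKM. RAB23, known as a brake on the pathway, stood at 7.53 and 7.80 RPKM, and the transport protein IFT52 at 7.03 and 7.42 RPKM. The lowest were TMEM67 at 1.42 and 1.40 RPKM and CC2D2A at 1.43 and 1.39 RPKM, both of the ciliary transition zone, followed by INTU at 1.56 and 1.29 RPKM and the motor DYNC2H1 at 1.43 and 1.53 RPKM. Transcripts of cilium genes do not show whether the cells carried cilia.

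Of 23 known target genes outside the 9 members, 11 reached 1 RPKM (47.8%, beside 59.8% of protein-coding genes), 11 were at 0.1 in both libraries (beside 33.8%) and 1 lay between. The highest were the cyclin CCND1 at 29.4 and 28.1 RPKM, the MYC family factor MYCN at 27.6 and 28.6, the small GTPase RAB34 at 25.5 and 26.4, the WNT antagonist SFRP1 at 22.7 and 22.6 and the mitotic factor FOXM1 at 18.9 and 18.7. CCND1, MYCN and FOXM1 are controlled by many pathways. Among the lower ones that reached 1 RPKM were WNT5A at 1.79 and 1.70 RPKM, BMP4 at 1.54 and 1.49 and JAG2 at 1.29 and 1.71. The forkhead genes of gut mesenchyme FOXF1, FOXF2 and FOXL1 were under the limit, as were FOXC2, FOXE1, NKX2-2, NKX3-2, PAX9, OSR1, GREM1 and BCL2. Several of these 11 are genes of mesenchyme, ventral neural tube or other foregut derivatives.

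**Figure D4:**
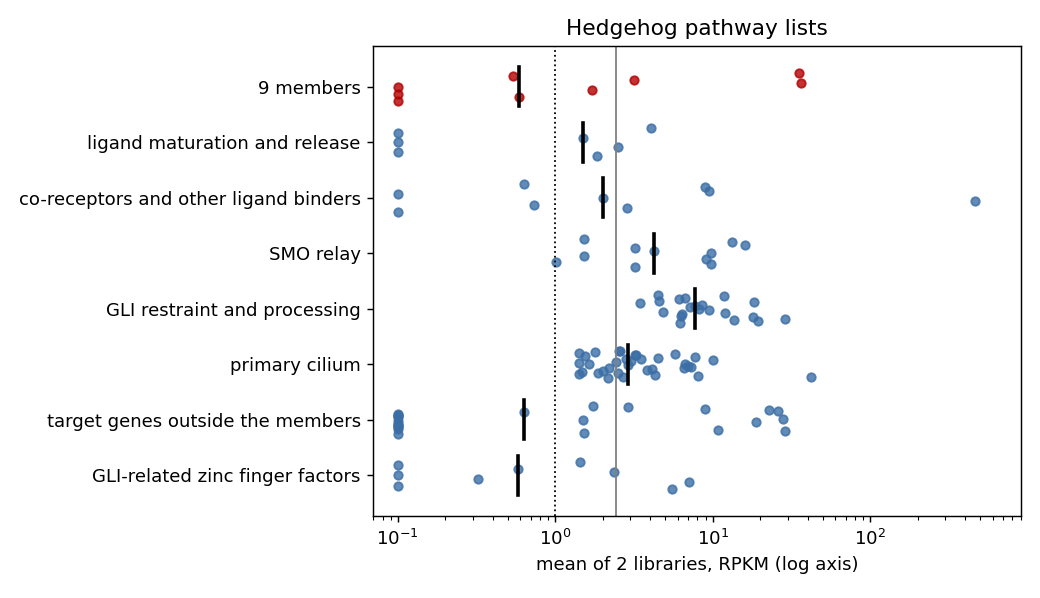
Mean RPKM of the 2 libraries (log axis) for each gene of the 9 Hedgehog members (red) and of 7 pathway lists (blue), with a black bar at each list's median, a dotted line at 1 RPKM and a grey line at the median of all protein-coding genes, 2.42 RPKM. All genes of the GLI restraint and cilium lists lie to the right of the dotted line, while the members and the target genes spread from the listed 0.1 to above 20 RPKM.

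The cell mixture was described with marker lists, because fewer cells of a type and less RNA per cell cannot be told apart in bulk RNA. All 11 hepatic progenitor markers reached 1 RPKM, with a median of 365 RPKM, and ALB was the lowest at 6.84 and 6.53 RPKM. Septum transversum mesenchyme and stellate cells are the kind of cell in which a Hedgehog response is known in liver. Of their 15 markers, 4 reached 1 RPKM: PDGFRA (18.5 and 17.9 RPKM), ALCAM (9.88 and 10.1), COL1A1 (8.29 and 8.30) and PDGFRB (2.06 and 2.22). LRAT stood at 0.816 and 0.817 RPKM, and ACTA2 was above 0.1 in library 2 only, at 0.562 RPKM. The 15 summed to 40.5 RPKM in library 1 and 40.8 RPKM in library 2, and DES, DCN, COL3A1, LHX2, WT1, TBX18, HAND2, NGFR and FOXF1 were at 0.1 in both libraries. Of 5 notochord and floor plate markers, tissues that make SHH, FOXJ1 (2.27 and 1.82 RPKM) and CORIN (1.37 and 1.27) reached the limit, while TBXT and NOTO did not, and the list summed to 3.93 and 3.39 RPKM. Detected were also 2 of 8 intestinal, 3 of 7 pancreatic, 2 of 4 endothelial, 3 of 4 cholangiocyte and 0 of 5 pluripotency markers. The highest cholangiocyte marker was KRT19 at 406 and 411 RPKM, and the highest intestinal marker VIL1 at 30.3 and 29.7. The highest pancreatic marker was SOX9 at 9.04 and 9.90 RPKM, followed by PDX1 at 8.01 and 8.87. The highest endothelial marker was ESAM at 5.52 and 5.99 RPKM. SOX9 is in both the pancreatic and the cholangiocyte list. Each marker count in this paragraph stands beside the 59.8% of protein-coding genes that reached the same limit. The part of other cell types in the levels of the Hedgehog genes was not tested.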

How the data were processed

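Poly(A) RNA from 2 libraries of 1 group was analysed, with RPKM values as deposited by the authors, 1 column per library. According to the series description, reads were mapped to hg19 and expression was determined by Sailfish; Cufflinks 2.2.0, STAR 2.3.0e and FastQC 0.10.1 also appear, without roles, in the submitters' processing notes. Not given in the sources used here are the annotation release, the gene lengths used and the strand setting of the counting.

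The authors' identifiers were joined without version to GENCODE release 44 on GRCh37 (hg19), and 54428 of 57158 (95.2%) matched. The background was 19344 protein-coding symbols. Detection means 1 RPKM or more in both libraries. With 1 group, and libraries that count as 1 sample, no test or p-value was computed. For single-exon genes under 500 reads, 81.4% of values in each library fell on whole reads (tolerance 0.02), which put the depth at 25182071 and 25263820 reads. Read numbers of members are approximate: RPKM times that depth times the longest coding transcript. Members did not give whole reads, so counts were not rebuilt. Without molecular identifiers, counting error is the least error to allow for. The check of library spread was tested on simulated data.

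The members, 8 pathway lists and 8 marker lists were chosen with earlier results of these data known. Named are all members, any gene of lists of up to 11 genes, and of longer lists the 5 highest, the 5 lowest detected and those at 0.1. Genes of long lists outside this rule, such as SUFU, KIF7, GSK3B, PRKACA, RAB23 and IFT52, were named for their role with values known. With 2 libraries of 1 group, no likeness of pattern between genes could be computed. Of the marker symbols 2 were not matched. A few list genes are left unnamed but enter the counts. Python 3.11.15, pandas 2.3.3 and numpy 2.4.6 were used.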

Additional observations from a re-analysis of the deposited data

How the results depend on the processing

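No paired analysis was possible because the series has 1 group. At a limit of 5 RPKM, which 35.4% of protein-coding genes reached in both libraries, the number of members detected was 2 of 9. The counts were 0 of 7 for ligand maturation and release, 3 of 9 for co-receptors and other ligand binders and 5 of 11 for the SMO relay. They were 9 of 35 for the primary cilium, 7 of 23 for target genes and 2 of 9 for GLI-related factors. At 0.5 RPKM, 6 of 9 members were detected, beside 65.1% of protein-coding genes. The median of the members was 0.562 to 0.668 RPKM when either library was left out. Levels were also rescaled to a fixed sum over protein-coding genes, leaving out those of the mitochondrial genome. The median of the members was then 2.97, with IHH at 183 and SMO at 177, since that scaling multiplies every level by about 5.02. The median log2 level of the members minus that of protein-coding genes was -1.11 with a pseudocount of 1, -1.87 with 0.1 and -2.03 with 0.01. Among protein-coding genes above 0.1 in 1 library or more, 90.4% were detected. Of genes beside the members, 43 of 123 were detected within 200 kb, against 13 of 41 within 50 kb. In the whole table, 59.8% of protein-coding genes and 8.27% of the other annotated genes were detected. Summing identifiers could change no member, because each has 1 identifier. Of the members above 0.1, depth limits SHH and GLI1 most, at 51 to 67 reads. For DHH, GLI2 and HHIP the limit is set by the listing of every value under 0.5 RPKM as 0.1.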

Other observations

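Of 9 factors related to the GLI family by their zinc fingers, 4 were detected (44.4%, beside 59.8% of protein-coding genes). GLIS2 stood at 6.78 RPKM in library 1 and 7.30 RPKM in library 2, with GLI4 at 5.33 and 5.66 RPKM, both above GLI3. ZIC2 stood at 2.38 and 2.32 RPKM and ZIC5 at 1.24 and 1.64 RPKM, and GLIS3, known for its part in pancreas and thyroid, was above 0.1 in 1 library only. GLIS1, ZIC1 and ZIC4 were under the limit. All 3 late sterol enzymes, which supply the cholesterol that ligands carry and that SMO binds, were detected, beside 59.8% of protein-coding genes. Among them were DHCR7 at 26.6 and 26.7 RPKM and SC5D at 11.06 and 10.97 RPKM.

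Within 50 kb of the 9 members, 41 annotated genes had a value, and 13 of them were detected, 12 of these among 17 protein-coding genes. Within 200 kb, 43 of 123 were detected, 34 of these among 51 protein-coding genes. In the whole table, 59.8% of protein-coding genes and 8.27% of the other annotated genes were detected. The high level of IHH was not shared by the coding genes beside it: NHEJ1, 8.43 kb away, stood at 4.97 and 4.68 RPKM, and CFAP65 was at 0.1. Beside DHH, under the limit itself, TUBA1B stood at 548 and 542 RPKM and LMBR1L, 2.33 kb away, at 6.22 and 6.38 RPKM. Of 7 coding genes beside GLI1, 4 were detected, near the 59.8% of all protein-coding genes. MARS1, 3.18 kb away, stood at 17.0 and 16.6 RPKM, while INHBE, 0.505 kb away, and the overlapping ARHGAP9 were at 0.1.

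Of the 10 genes that overlap a member, 9 are not protein-coding, and none of the 10 reached 1 RPKM in both libraries; of 35083 annotated genes that are not protein-coding, 8.27% did, so a count of 0 here is no result about these genes. HHIP-AS1, which lies on the strand opposite HHIP, stood at 0.683 RPKM in library 1 and 0.556 in library 2, while HHIP itself was under the limit. The noncoding gene ENSG00000271155, opposite PTCH1, stood at 0.794 and 0.961 RPKM. The libraries keep strand, but the strand setting of the counting is not given, so it is not known whether reads of such pairs were told apart. Of the 31-base words of the longest coding transcripts, IHH, GLI1 and GLI3 shared none with transcripts of another gene, and SMO shared 2.63% with 1 overlapping gene. For DHH the share was 6.40%, for HHIP 3.85%, for PTCH1 2.47%, for SHH 0.433% and for GLI2 0.211%.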
